A study of Homo sapiens with 2 samples.

Results

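The genes described here encode the core machinery of pre-mRNA splicing and its SR protein regulators, measured in MEG-01 cells, a megakaryoblastic line established from chronic myeloid leukemia (CML). They are 53 genes listed by name as SR proteins and SR-related factors, proteins of the U1, U2 and tri-snRNP particles, Sm proteins and splicing kinases, of which 51 had a probe set of their own among 19775 genes on the array. SRSF2 was read only by 3 probe sets annotated to it together with another gene and SRSF9 only by 2 such probe sets, so neither has a value here. The members were listed by function and not by their signals, though with earlier results of these data known. Of the members 3 (NCBP1, SREK1 and SCAF11) are in a list the study printed, of genes past 3-fold on these same arrays that also differed in other CML datasets. Their direction is therefore not independent evidence. That list is a subset of the study's 3-fold genes, whose full set was not used here.

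Both groups were MEG-01 cells transduced with a lentivirus and sorted by flow cytometry. The control, called Venus, carried the vector with the fluorescent protein alone. The other, called GAS2DN, also carried a truncated, dominant negative form of GAS2, a calpain-binding protein of the actin cytoskeleton, driven by a viral promoter (that of the spleen focus forming virus). The transgene was therefore expressed in addition to the cells' own GAS2, in 1 cell line. Equal amounts of RNA from 3 extracts were combined for each condition and read on a single U133 Plus 2.0 array. There are thus 2 arrays, no replicates and no tests, and this number of arrays sets how precise any ratio can be.

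Splicing removes introns in consecutive chemical steps on the spliceosome. The U1 snRNP pairs with the 5′ splice site, SF1 and the U2AF heterodimer mark the branch point and the 3′ splice site, and the U2 snRNP with its SF3A and SF3B complexes then takes the branch point. The tri-snRNP of U4, U6 and U5 joins before catalysis, each spliceosomal snRNP except U6 is built on a ring of Sm proteins, and SR proteins, which are phosphorylated by the SRPK and CLK kinases, bind exons and recruit these particles. Mutations of SF3B1, U2AF1 and SRSF2 are well known in myeloid neoplasms.

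The values are MAS5 signals, the intensity summary that Affymetrix software computes for a probe set (a group of short probes against 1 transcript region). The median signal was 55.6 in Venus and 69.1 in GAS2DN cells. Eligible probe sets are those whose brighter signal reached the median of its array. Each gene is represented by its main probe set, which has the highest mean log2 signal over both arrays, and probe sets ending in _x_at, whose probes may bind other transcripts, were passed over where the gene had another. All 51 members passed this filter with their main probe set, as did 13086 of the 19775 genes. Of 150 probe sets of the members 135 were eligible. GAS2 itself had signals of 24.3 and 34.7 in Venus and GAS2DN cells, both under the array medians. Where its probe set lies relative to the truncation is not given in the sources used here. Of 12 megakaryocyte markers 10 had a probe set of their own and 8 were at or above the median on both arrays. ITGA2B, the platelet integrin subunit, had 7149 and 9238, and the lineage factor GATA1 had 1617 and 1516, while the platelet chemokines PF4 and PPBP were under the median on both arrays. The summed signals in Venus and GAS2DN cells were 14304 and 18231 for these 10 markers, 2607 and 3391 for 6 erythroid, 3061 and 3833 for 10 fibroblast or kidney line and 551 and 464 for 9 lymphoid ones. Higher in GAS2DN cells were 7, 3, 6 and 5 of these markers in turn, and the sums rest on a few bright probe sets. The erythroid factor KLF1 alone had 2173 and 2963, while KRT18 had 1797 and 2024 and THY1 had 1005 and 1539 of the fibroblast or kidney line sum. Their part in the values below was not tested.

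The splicing genes had nearly the same signals in Venus and GAS2DN cells. By the main probe set 22 of the 51 were higher and 29 lower in GAS2DN cells, with log2 ratios of GAS2DN to Venus from -0.98 in LUC7L to 0.45 in SRRM2. Their median was -0.06, beside 0.06 over all 13086 measured genes, of which 43.8% were lower. No member passed 2-fold by its main probe set, beside 12.4% of all measured genes, although with each array centred on its median 1 did, LUC7L. This share depends strongly on signal, however, and 43 of the 51 members were among the brightest 3272 of the measured genes, where 0.581% passed 2-fold. LUC7L and U2AF2 were over 1.5-fold lower and no member was over 1.5-fold higher. Over all measured genes 9.12% were over 1.5-fold lower, and 2.78% of the brightest 3272. LUC7L and U2AF2 were both among the 43 bright members, so 2 of these 43 passed. Over 1.5-fold higher were 1874 of all 13086 measured genes, but only 25 of the brightest 3272. In RNA from a whole culture, fewer cells that use a gene and less RNA per cell cannot be told apart.

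**Figure D1:**
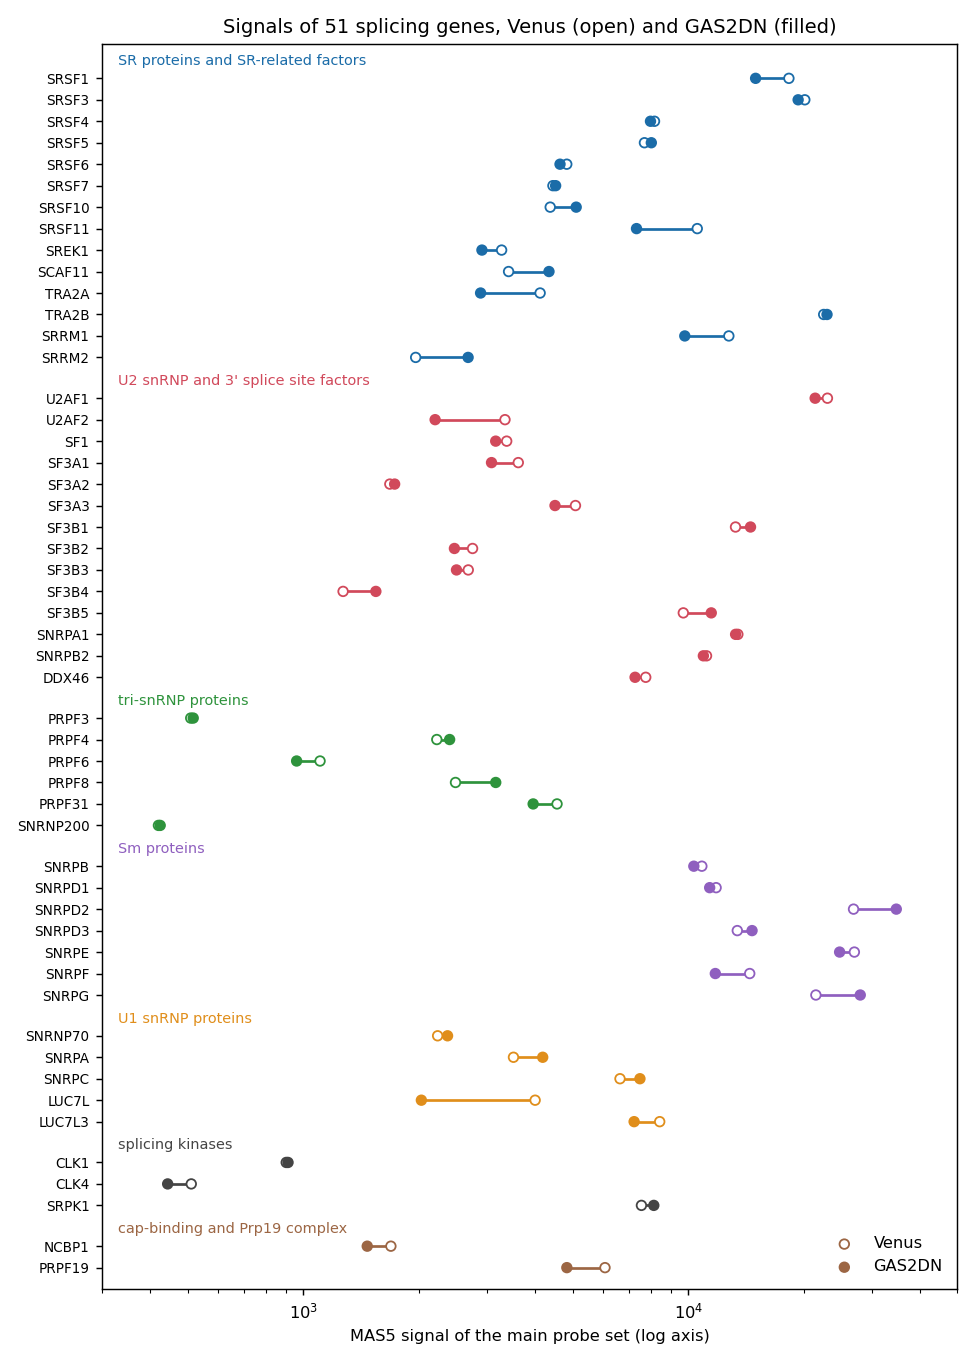
MAS5 signal (log axis) of the main probe set of 51 splicing genes in Venus (open circles) and GAS2DN cells (filled circles), 1 array each, grouped by role. Most pairs nearly coincide, and the longest bar is that of LUC7L, from 3998 to 2024. Signals of different genes come from different probes and are not comparable.

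The promoters of the splicing genes were read for sequence features that the choice of members did not use. RefSeq promoter windows of GRCh38.p14, from 250 bases before to 50 after the start, were matched for 47 of the 53 genes, with the first listed start where there were several. The letters CCGGAAG, a core recognised by ETS family factors, occurred on either strand in 19 of the 47 windows, 40.4%, beside 10.7% of all 27305 windows and 18.6% of those of 10563 measured genes. The GC box letters GGGCGG were in 61.7%, beside 44.6% of all windows and 67.5% of those of measured genes, and TATAAA was in 6.38%, beside 12.0% and 6.24%. CCAAT was in 25.5%, beside 35.7% and 36.6%, and TGCGCA, within the NRF1 motif, in 19.1%, beside 8.42% and 13.1%. Of the 19 genes with CCGGAAG, 9 encode U2 and 3′ splice site factors and 4 Sm proteins. These groups held 14 and 7 measured genes, of which SF3B3 and SNRPD1 had no matched window. The main log2 ratios of the 19 ran from -0.60 in U2AF2 to 0.38 in SNRPG with a median of -0.03. In the 27 measured members without a match they ran from -0.98 to 0.45 with a median of 0.02. These shares describe letters and say nothing about binding in MEG-01 cells.

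Windows of U2AF2 and SNRPD2 are shown because both hold these letters although their ratios differ in sign, and that of LUC7L because it was the lowest member, each 5′ to 3′ on the strand of the gene with CCGGAAG, or its reverse complement, in capitals. They lie at chr19:55654785-55655084 (plus strand), chr19:45692267-45692566 (minus strand) and chr16:229400-229699 (minus strand) of GRCh38.p14.
U2AF2: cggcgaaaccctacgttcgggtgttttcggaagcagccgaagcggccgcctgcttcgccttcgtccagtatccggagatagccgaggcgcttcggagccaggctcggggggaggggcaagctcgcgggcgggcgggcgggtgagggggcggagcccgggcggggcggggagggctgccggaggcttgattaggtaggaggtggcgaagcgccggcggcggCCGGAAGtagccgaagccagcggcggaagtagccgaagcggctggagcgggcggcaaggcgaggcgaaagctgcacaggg
SNRPD2: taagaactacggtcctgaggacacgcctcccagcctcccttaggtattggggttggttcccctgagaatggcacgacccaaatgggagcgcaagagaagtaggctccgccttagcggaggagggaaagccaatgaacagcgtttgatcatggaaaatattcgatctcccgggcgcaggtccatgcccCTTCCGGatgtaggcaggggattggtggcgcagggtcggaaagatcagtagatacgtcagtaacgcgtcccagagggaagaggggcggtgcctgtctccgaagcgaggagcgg
LUC7L: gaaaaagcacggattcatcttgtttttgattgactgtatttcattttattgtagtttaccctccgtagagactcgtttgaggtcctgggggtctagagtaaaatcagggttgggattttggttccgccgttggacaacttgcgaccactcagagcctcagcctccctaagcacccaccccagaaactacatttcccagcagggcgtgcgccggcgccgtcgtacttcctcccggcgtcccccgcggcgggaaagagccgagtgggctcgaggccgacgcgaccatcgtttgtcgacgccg

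SR proteins and SR-related factors, the exon-binding regulators, had a median log2 ratio of -0.05 over 14 measured genes, with 6 higher and 8 lower. SRSF1, the founding member of the family, was 18244 in Venus and 14950 in GAS2DN cells, a log2 ratio of -0.29. Over its 8 eligible probe sets 5 were lower, with a mean of -0.06 ± 0.30 (SD, n = 8 probe sets). SRSF3, the smallest classical SR protein, had 20065 and 19280, and its 5 eligible probe sets had a mean of -0.04 ± 0.18 (SD, n = 5 probe sets). For both genes the difference was thus smaller than the spread between probe sets of the gene. TRA2B, an activator of exon inclusion, had 22463 and 22915. The main probe sets of SRSF4, SRSF5, SRSF6 and SRSF7 had log2 ratios between -0.06 and 0.06. SRSF10, a splicing regulator controlled by dephosphorylation, had 4376 and 5111, a log2 ratio of 0.22, with the other 4 probe sets between -0.27 and 0.04.

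At the lower end of this group lay SRSF11, TRA2A and SRRM1. SRSF11, an SR-related protein, had 10544 and 7332 in its main probe set, a log2 ratio of -0.52, and 3698 and 2801 in the next, -0.40. Its other 2 probe sets ran the other way, with 1324 and 1849 (0.48) and with 42.1 and 86.6 (1.04). TRA2A, the paralog of TRA2B, had 4119 and 2885, a log2 ratio of -0.51. The other eligible probe sets of TRA2A had 129.0 and 129.3 (0.003), 117 and 165 (0.49) and 38.3 and 91.7 (1.26), and a dim one had 22.0 and 4.10 (-2.43). In both genes the brightest probe set was lower in GAS2DN cells. The dimmest eligible one was under the Venus median and passed the filter only through its GAS2DN signal. Its higher direction thus follows from the filter. SRRM1, a coactivator of exonic enhancers, had 12737 and 9787, a log2 ratio of -0.38, though 1450 and 1479 in its other probe set.

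At the higher end lay SRRM2 and SCAF11, each with a probe set far the other way. SRRM2, a large scaffold of nuclear speckles, had 1957 in Venus and 2677 in GAS2DN cells, a log2 ratio of 0.45, and 1728 and 2001 in its second probe set, 0.21. Its remaining probe sets had 77.5 and 19.1 (-2.02) and, not eligible, 36.6 and 57.5 (0.65). SCAF11, an SR-related protein of the U2AF and U1 interface, had 3411 and 4344 in its main probe set, a log2 ratio of 0.35. Another probe set of SCAF11 had 334 in Venus and 64.9 in GAS2DN cells, a log2 ratio of -2.36. The other eligible probe sets of SCAF11 had 3563 and 2066 (-0.79), 3470 and 3267 (-0.09), 1930 and 2505 (0.38), 520 and 596 (0.19) and 66.2 and 42.7 (-0.63). The SCAF11 probe sets thus disagreed in direction, 3 higher and 4 lower, with a mean of -0.42 ± 0.97 (SD, n = 7 probe sets).

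SREK1, a regulator that binds SR proteins, had 3272 and 2908 in its main probe set, a log2 ratio of -0.17. Its other eligible probe sets had 1178 and 1244 (0.08), 233 and 256 (0.13), 148 and 65.7 (-1.17) and 72.0 and 114 (0.66). The 2 lowest ratios of SREK1 came from probe sets that were not eligible, with 40.9 and 6.59 (-2.63) and 39.9 and 10.0 (-1.99), while another dim one had 20.8 and 33.7 (0.69). The eligible ones had a mean of -0.09 ± 0.67 (SD, n = 5 probe sets), and each SREK1 ratio under -1 had at least 1 signal below the array median.

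Factors of the U2 snRNP and the 3′ splice site had a median log2 ratio of -0.09, with 4 of 14 higher and 10 lower. U2AF2, the large U2AF subunit that binds the polypyrimidine tract, was lowest. Its main probe set had 3338 in Venus and 2198 in GAS2DN cells, a log2 ratio of -0.60. Its other eligible probe set had 281 and 250 (-0.17), and 2 dim ones had 4.90 and 11.1 (1.18) and 3.42 and 12.8 (1.90). U2AF1, the small subunit that reads the AG at the 3′ splice site, had 22972 and 21347, a log2 ratio of -0.11, and 0.04 and -0.59 in its other eligible probe sets. SF1, which binds the branch point before U2 does, had 3373 and 3158, a log2 ratio of -0.09. A dim probe set of SF1 had 19.2 and 73.4 (1.94) and another, not eligible, had 18.9 and 5.54 (-1.77). The main probe sets of U2AF2, U2AF1 and SF1 were thus all lower, while the large ratios of SF1 and of the dim U2AF2 probe sets came from at least 1 signal under the array median.

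Of the SF3A and SF3B complexes, which anchor U2 at the branch point, SF3B1 had the steadiest probe sets among members with 3 or more of them. SF3B1 had 13256 and 14500 in the main probe set, and its 5 probe sets had log2 ratios from 0.09 to 0.28, a mean of 0.19 ± 0.08 (SD, n = 5 probe sets). It was the 1 member among 20 with 3 or more eligible probe sets in which all were higher, beside 13.3% of all such genes. With each array centred on its median, the 5 were lower instead, from -0.22 to -0.03. SF3B4 had 1268 and 1542 (0.28) and SF3B5 had 9701 and 11466 (0.24), each in its only probe set. SF3A1, the U2 subunit with a ubiquitin-like domain, had 3615 and 3080 (-0.23), and its other probe sets had 2903 and 3287 (0.18), 867 and 764 (-0.18) and 332 and 328 (-0.02). The main probe sets of SF3A2, SF3A3, SF3B2 and SF3B3 lay between -0.18 and 0.04. SNRPA1 and SNRPB2, the U2-specific A′ and B″ proteins, had -0.02 and -0.03, and the helicase DDX46, needed for U2 to bind stably, had -0.09, though -0.50 in its second probe set.

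The tri-snRNP proteins had a median log2 ratio of 0.02 over 6 genes, with 4 higher and 2 lower. PRPF8, the scaffold of the catalytic centre, had 2483 in Venus and 3159 in GAS2DN cells, a log2 ratio of 0.35, in its only probe set. PRPF4, a U4 and U6 snRNP protein, had 2220 and 2397 (0.11) and 972 and 1106 (0.19). PRPF31 had 4558 and 3951 (-0.21), 1084 and 1164 (0.10) and, in a dim probe set, 14.9 and 9.10 (-0.72). PRPF6, a bridge between U5 and the U4 and U6 snRNPs, had 1104 and 960 (-0.20) and 195 and 193 (-0.02). Each value other than that of PRPF8 was within 0.21 of 0 in the eligible probe sets. PRPF3 had a log2 ratio of 0.02, and so did SNRNP200, the helicase that unwinds U4 from U6, in the 1 probe set assigned to it alone, while 3 others were annotated to it and a second gene.

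The Sm proteins, which form the ring around the snRNAs, had a median log2 ratio of -0.06, with 3 of 7 higher and 4 lower. SNRPG had 21438 in Venus and 27956 in GAS2DN cells (0.38), SNRPD2 had 26854 and 34680 (0.37) and SNRPD3 had 13399 and 14634 (0.13), each in its only probe set. SNRPF had 14432 and 11748 (-0.30), also in its only one. Members of the same ring thus lay on both sides of 0. SNRPE had 26989 and 24709 (-0.13), with 1654 and 1872 (0.18) and 135 and 114 (-0.25) in its other probe sets. SNRPB and SNRPD1 had -0.07 and -0.06, and 0.03 and 0.02 in their second probe sets. RefSeq lists pseudogenes of SNRPE and SNRPG, so their signals may hold RNA of related sequences.

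Of the U1 snRNP proteins the 3 that belong to the particle itself were slightly higher in GAS2DN cells, and the associated LUC7L and LUC7L3 were lower. LUC7L2, a relative of both among the further U1 factors, had 2112 and 2115 (0.002) in its main probe set. By main probe sets, then, not every LUC7-like gene was lower. SNRPA, the U1 A protein, had 3512 and 4183 (0.25) and SNRPC, the U1 C protein that steadies the pairing with the 5′ splice site, had 6642 and 7484 (0.17), each in its only probe set. SNRNP70, the U1 70K protein, had 2232 and 2368 (0.09), and 65.9 and 79.2 (0.27). With each array centred on its median these main probe sets were instead at -0.06, -0.14 and -0.23, where the median of all measured genes was -0.26.

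LUC7L, a homolog of a yeast U1 protein that helps choose the 5′ splice site, had 3998 in Venus and 2024 in GAS2DN cells in its main probe set, a log2 ratio of -0.98. Its other eligible probe sets had 1606 and 1382 (-0.22), 1448 and 1439 (-0.01), 1421 and 1002 (-0.50) and 58.4 and 28.3 (-1.04). All 5 were lower, with a mean of -0.55 ± 0.46 (SD, n = 5 probe sets). LUC7L was the 1 member among 20 with 3 or more eligible probe sets in which all were lower, beside 10.2% of all such genes, so this is no more than the background share. After loess or quantile scaling, or with low signals raised or the array median added, 4 of the 5 were lower. LUC7L3, its paralog, had 8423 and 7228 (-0.22) in the main probe set. Its other probe sets had 9713 and 6226 (-0.64), 6462 and 3512 (-0.88), 488 and 382 (-0.35), 462 and 600.4 (0.38) and 108 and 54.7 (-0.98). Thus 5 of 6 probe sets of LUC7L3 were lower, with a mean of -0.45 ± 0.50 (SD, n = 6 probe sets), and the same number under all 5 other scalings and treatments of low signals.

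**Figure D2:**
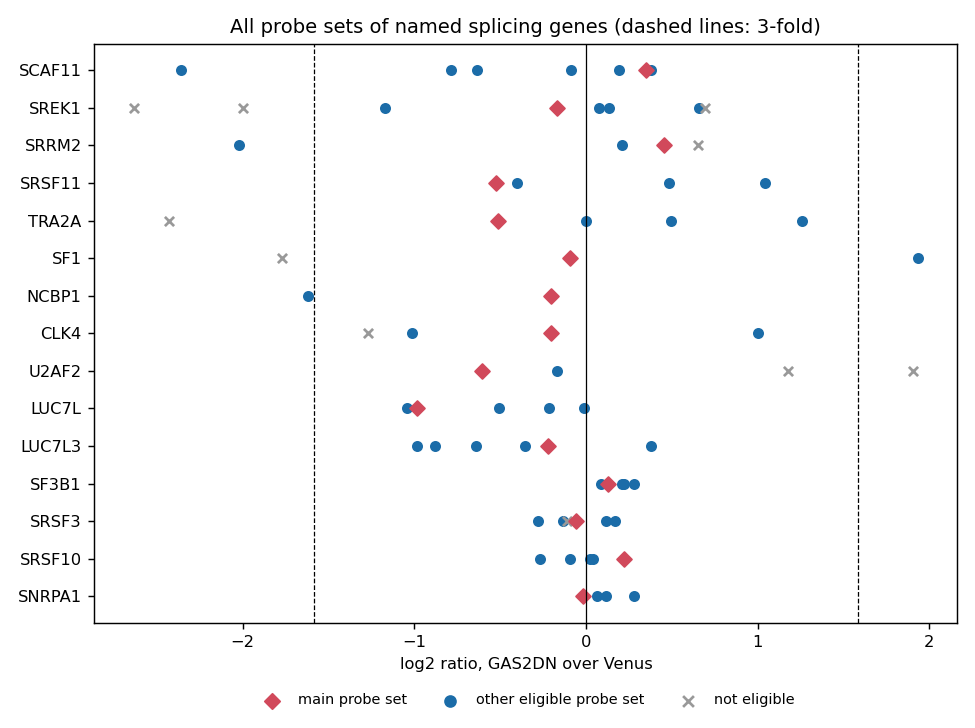
GAS2DN over Venus as a log2 ratio in every probe set of splicing genes that were chosen after their values were seen, with the main probe set as a diamond, other eligible ones as circles and those not eligible as crosses; dashed lines mark 3-fold. LUC7L lies at or left of 0 throughout and SF3B1 right of it, while SCAF11, SRRM2 and TRA2A spread over both sides.

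The kinases that phosphorylate SR proteins had log2 ratios near 0 in their main probe sets. SRPK1, the cytoplasmic SR kinase, had 7551 in Venus and 8130.5 in GAS2DN cells (0.11), and 353 and 432 (0.29). CLK1, a nuclear kinase of SR proteins, had 902 and 912 (0.02) in its only probe set. CLK4 had 511 and 444 (-0.20), and its other probe sets had 226 and 112 (-1.02), 54.0 and 108 (1.004) and, not eligible, 12.8 and 5.31 (-1.27). The 2 dimmer eligible probe sets of CLK4 were thus about equally far from 0 in opposite directions. Of the remaining members, PRPF19, the ubiquitin ligase of the Prp19 complex, had 6072 and 4833 (-0.33) in its only probe set. NCBP1, the large subunit of the nuclear cap-binding complex, had 1687 and 1465 (-0.20) in the main probe set, and 131 and 42.6 in the other, a log2 ratio of -1.62. Both probe sets of NCBP1 were lower, and the size of the larger difference rests on a GAS2DN signal under the array median.

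At the study's 3-fold threshold 1 of the 135 eligible probe sets of the members, that of SF1, was higher in GAS2DN cells, beside 4.96% of 24840 eligible single-gene probe sets. Over 3-fold lower were 3, those of SCAF11, SRRM2 and NCBP1, beside 3.36%. At 2-fold 4 were higher (SF1, TRA2A, SRSF11 and CLK4) and 6 lower (SCAF11, SRRM2, NCBP1, SREK1, LUC7L and CLK4), beside 8.51% and 6.07%. The members' shares were 0.741% and 2.22% at 3-fold and 2.96% and 4.44% at 2-fold, each below that of all probe sets. Such shares depend on signal and the members were mostly bright, and probe sets of equal signal were not compared here. In 9 of the 10 over 2-fold the dimmer signal was under the median of its array, and the exception was the CLK4 probe set with 226 and 112. Those 9 passed the filter only through the array on which they were brighter. Without the 3 members of the list the study printed, 1 of 121 probe sets was over 3-fold higher (SF1) and 1 lower (SRRM2).

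**Figure D3:**
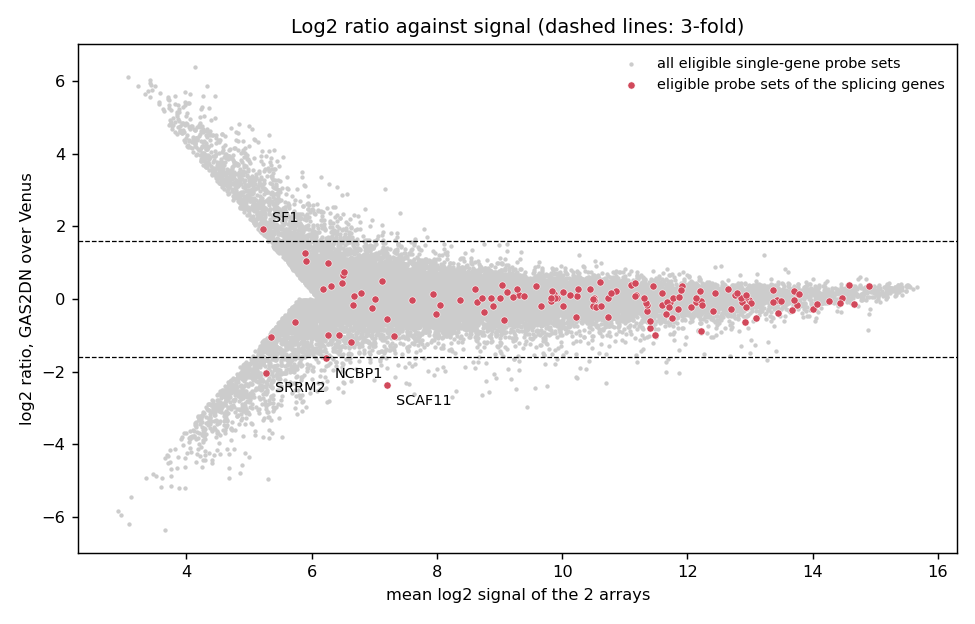
GAS2DN over Venus as a log2 ratio against the mean log2 signal of both arrays, for eligible probe sets of the splicing genes (red) and of all genes (grey), with 3-fold as dashed lines. The named probe sets beyond 3-fold, those of SF1, SCAF11, SRRM2 and NCBP1, lie at low signals, and the red points narrow towards 0 as the signal increases.

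The spread between probe sets of 1 gene is the only repeated measure within the arrays. Over the 36 members with at least 2 eligible probe sets the pooled SD of the log2 ratio was 0.55, and 0.31 where both signals were at or above the array medians. The main and the next brightest eligible probe set had the same sign in 15 of these 36 members. The other members of these 36 had opposite signs in the pair, so the direction of a single member often depended on the probe set. Where both signals were at or above the medians, 1 of 123 probe sets of the members passed 2-fold. Over all genes 3.36% of 20496 did, again without matching for signal. Probe sets annotated to a RefSeq mRNA, 43 in number, had an SD of 0.32 and none over 2-fold, and 33 annotated to an expressed sequence tag had an SD of 0.75 and 7 over 2-fold. The remaining 59, annotated to other mRNA or cDNA, had an SD of 0.48 and 3 over 2-fold. The median Venus signals were 5795, 233 and 1448 in turn, so the kind of source sequence and the signal cannot be told apart here.

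Other genes of the pathway, 110 in 7 lists, also had medians close to 0. Of 102 measured genes 44 were higher and 58 lower, beside 43.8% lower over all measured genes. Their median log2 ratio was -0.04, and 6 passed 2-fold, beside the 12.4% of all measured genes. Other scalings and choices of probe set were not tried on these lists, so the directions of their medians are not settled. Of these 102 genes 66 were among the brightest 3272, where 0 passed 2-fold beside the 0.581% given above, so all 6 lay among the dimmer genes. Of 16 further tri-snRNP and LSm proteins 12 were higher, the median was 0.05 and none passed 1.5-fold. Further U1 and U2 factors were lower in 13 of 17, with a median of -0.12. PRPF40B, a U1-associated protein, was lowest with 85.3 and 18.4 (-2.21) and U2AF1L4, a U2AF1 relative, highest with 43.0 and 94.9 (1.14), each with 1 signal under the array median. The highest and lowest values of this list therefore rest on dim signals. U2SURP was also over 1.5-fold lower, with 5330 and 3473 (-0.62), both above the array medians.

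Genes of the Prp19 complex and the catalytic steps had a median of -0.07, with 8 of 25 higher. XAB2, which also acts in transcription-coupled repair, had 105 and 253 (1.27) and DHX38, a helicase of the second step, had 268 and 153 (-0.81). In the minor spliceosome, which removes the rare U12-type introns, 6 of 9 genes were lower and the median was -0.19. RBM48 had 656 and 326 (-1.01), though -0.17 and -0.12 in its other probe sets. Cap-binding and exon junction genes were lower in 6 of 10, with a median of -0.11, and RNPS1, an SR-related activator, had 6643 and 3996 (-0.73), though 0.26 in its other probe set. Genes of snRNP assembly were lower in 8 of 14, with a median of -0.03. PHAX, the export adaptor of snRNAs, had 1583 and 456 (-1.79) with both signals above the array medians, though its other 2 eligible probe sets had -0.30 and -0.29. Of 11 further SR proteins and kinases 7 were higher and the median was 0.02. SRPK3, a muscle kinase of the SRPK family, had 53.5 and 174 (1.70), with the Venus signal under the array median.

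**Figure D4:**
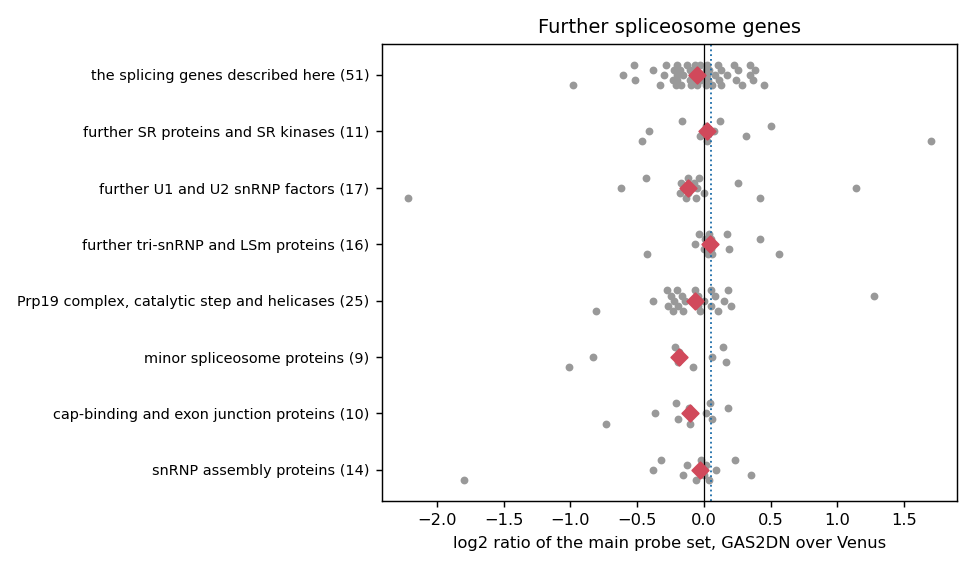
GAS2DN over Venus as a log2 ratio, by gene (grey points, main probe sets) and as list medians (red diamonds), for the splicing genes and 7 lists of other spliceosome genes (measured genes of each list in brackets). The dotted blue line is the median of all measured genes, 0.06, and the diamonds lie between -0.19 and 0.05.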

How the data were processed

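Venus and GAS2DN cells were each measured on 1 array carrying the pooled RNA of 3 extracts. The authors deposited log2 MAS5 signals. The submitters' notes name MAS5, and its version is not given in the sources used here. On the linear scale the 2% trimmed means were 499.9 on either array, and no detection calls were used. Of 54675 probe sets 62 were controls, 41091 had 1 annotated gene, 1801 several and 11721 none. Only those with 1 gene were used, and 41037 symbols were updated through the gene identifier. Log2 ratios are GAS2DN minus Venus of the deposited values.

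The members and lists were chosen with earlier results of these data known. All 53 members could be named. Every probe set is given for members with an eligible probe set over 2-fold, the 3 in the study's printed list and the 2 highest and 2 lowest of each group, and of the further lists the highest and lowest gene where over 1.5-fold. LUC7L2 and U2SURP were named outside this rule, each by its main probe set only. LUC7L2 is a relative of LUC7L and LUC7L3, and U2SURP was over 1.5-fold lower without a dim signal. Alternatives changed the filter (none, both signals, percentile 75), low signals, the choice of probe set and the scaling. Scalings tried were quantile normalization, median centring and loess (span 0.2, 3 iterations). The steps were tested on simulated data. Python 3.11.15, numpy 2.4.6, pandas 2.3.3, statsmodels 0.14.6 and matplotlib 3.10.9 were used.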

Additional observations from a re-analysis of the deposited data

How the results depend on the processing

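With 1 array per condition no replicate could be left out, and a median was taken to have moved when it shifted by 0.1 or more on the log2 scale. The counts over 3-fold depended on the filter and on low signals. Against 1 higher and 3 lower, no filter gave 3 and 7 of 150 probe sets, and none was left in either direction where neither signal was under the median, where the brighter reached percentile 75, or with the array median added (0 and 0). With signals below the median raised to it there were 0 higher and 1 lower, of SCAF11. After loess or quantile normalization 0 were higher and 3 lower, with the SF1 probe set at 1.58 under either, just below 3-fold. At 2-fold there were 4 and 6. Centring each array on its median moved every median down, to -0.37 for all members, -0.36 for SR proteins, -0.41 for U2 factors, -0.29 for tri-snRNP, -0.37 for Sm and -0.23 for U1 proteins and -0.30 for kinases. Under this centring 46 of 51 members were lower, beside 75.1% of all measured genes. The median of all measured genes moved to -0.26, so that the members stayed 0.11 under it, as before, and LUC7L passed 2-fold by its main probe set. The median of all members, -0.06, was above 0 under the other choices of probe set, at 0.02 without the endings _s_at and _x_at, 0.02 as the median over eligible probe sets and 0.04 with the second-brightest. By the median over eligible probe sets 25 of 51 members were lower, and SR proteins had 0.03. Leaving out probe sets with the endings _s_at and _x_at, 16 of 36 members were lower, and the medians were 0.0071 for U2 factors, 0.0771 for Sm proteins, 0.25 for U1 proteins and -1.02 for kinases, of which CLK4 alone was left. With the second-brightest in place of the main one, 14 of 36 members were lower, with 0.0798 for U2 factors, -0.22 for U1 proteins and -0.36 for kinases. The signs of the group medians are therefore not settled by these arrays. The dimmest LUC7L probe set turned to 0.24 with low signals raised, because the floor was 69.1 on the GAS2DN and 55.6 on the Venus array. The other 9 probe sets over 2-fold kept their sign under all 5 scalings and treatments of low signals.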
